A study of Drosophila melanogaster with 30 samples.

Results

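The elements described here were the 5 reporter fragments named after the Hox genes Ubx (Ultrabithorax) and lab (labial), out of 591 different elements listed in the 2 rounds of a silencer screen in Drosophila embryos. Membership follows from the element's name: CRM_Ubx_BRE, CRM_Ubx_BXD-A, Ubx_BXD-C, lab_1.0 and lab_HZ550. The round 1 pool of 576 elements listed 3 of them (Ubx_BXD-C, lab_1.0 and lab_HZ550), and the round 2 pool of 188 elements listed 3 (CRM_Ubx_BRE, CRM_Ubx_BXD-A and Ubx_BXD-C). Each fragment was placed in a GFP reporter under a strong enhancer that is active in all cells, so that a fragment acting as a silencer lowers GFP in the cells that carry it. Males from the transgenic pool, each taken at random, were mated with twi:CD2 females, embryos were collected for 2.25 hours and aged 11 hours at 18 °C, and dissociated cells were stained for CD2, a rat surface protein that the twist driver places on mesodermal cells.

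All groups shared this cross. Within a round they differed only in the sorted cells, while the 2 rounds also differed in the pool of elements and the collection dates. Low-GFP cells were CD2+ cells with reduced GFP (6 libraries in each round), CD2+ cells were mesodermal cells with no selection on GFP (6 libraries in each round), and CD2- cells were the non-mesodermal sort (6 libraries, round 1 only). Each library of a group came from 1 of 6 collection days, days 1 to 3 being experiment 1 and days 4 to 6 experiment 2. The number of founder flies, insertions, cells or template molecules behind an element is not given in the sources used here. No RNA was measured, so the mesodermal label rests on the CD2 stain and could not be set against marker genes. Depth ran from 3399506 to 5934098 read 1 counts per library in round 1 and from 2928510 to 5488936 in round 2. Values are given as raw counts or as CPM, counts relative to the library total after TMM scaling, which corrects each library for its composition.

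Hox genes encode homeodomain transcription factors that give body segments their identity along the head to tail axis. Ubx, of the bithorax complex, acts in the posterior thorax and anterior abdomen, and is also expressed in mesoderm, including part of the visceral mesoderm of the midgut. Its bithoraxoid (bxd) region, upstream of the promoter, holds enhancers and Polycomb response sequences that keep the gene off outside its domain. lab, of the Antennapedia complex, is the Hox gene with the most anterior domain, in the head, and it is also induced in midgut endoderm by Dpp signalling from visceral mesoderm, downstream of Ubx. Both genes lie on chromosome arm 3R. The coordinates and sequences of the cloned fragments were not analysed here.

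The deposited tables identify each fragment by a tag of 12 bases, which is shown because it is the sequence that tells neighbouring fragments of a locus apart. The tags are printed as deposited, all in capitals because every base takes part in the identification.
Ubx_BXD-C: AAAGCGTAGCAC
CRM_Ubx_BXD-A: TCTTCTTGCTTC
CRM_Ubx_BRE: AAACCAAGACAC
lab_1.0: GACTATAGCTAA
lab_HZ550: CAACCCAGCGAC
In round 2 the Ubx_BXD-C tag differed from every other tag of the pool at 5 or more positions, that of CRM_Ubx_BRE at 4 or more and that of CRM_Ubx_BXD-A at 3 or more. In round 1 the smallest distances were 4 for Ubx_BXD-C, 3 for lab_1.0 and 4 for lab_HZ550. No other element of either pool therefore shared a tag with a Hox fragment.

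The Ubx fragments of round 2 were compared between low-GFP and CD2+ cells to see whether regulatory sequence of the locus was recovered more or less often from mesodermal cells with weak GFP. The bithoraxoid fragment Ubx_BXD-C was nearly lost from low-GFP cells, while the other bithoraxoid fragment, CRM_Ubx_BXD-A, was recovered about equally from both sorts. CRM_Ubx_BRE swung in both directions from day to day. No Ubx fragment was enriched in low-GFP cells. By edgeR's quasi-likelihood test with Benjamini-Hochberg adjustment over the 155 elements tested, 1 of the 3 Ubx fragments was called (adjusted p under 0.05), and it was lower. The background was 14.2% of all tested elements called, with 9.03% higher and 5.16% lower. Over all elements the split was 14 higher and 8 lower, against 8 and 17 when library totals set the scale and 23 and 2 when the pool's E. coli control elements set it. These scalings moved the median log2 fold change of all elements by -0.51 and 0.63. With collection day as a replicate block in the edgeR fit, 31 elements were called, 20 higher and 11 lower.

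Ubx_BXD-C had 4, 247, 63, 6, 608 and 879 counts in the low-GFP libraries of days 1 to 6, against 6089, 45762, 3311, 16062, 48786 and 45123 counts in the CD2+ libraries of the same days. In CPM the low-GFP libraries ranged from 1.31 to 278 with a median of 52.2, and the CD2+ libraries from 710 to 10344 with a median of 4966. The 2 groups did not overlap, since the highest low-GFP value stood below the lowest CD2+ value. Such a complete separation with low-GFP cells on the lower side was seen in 3.23% of the 155 tested elements. The fragment averaged 93.6 ± 113 CPM in low-GFP cells and 4949 ± 3851 CPM in CD2+ cells (mean ± SD, n = 6 each). It took 0.00720 ± 0.00807% of low-GFP counts and 0.587 ± 0.456% of CD2+ counts.

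The log2 fold change of Ubx_BXD-C was -5.98 (SE 1.31, edgeR adjusted p = 0.0109), a 62.9-fold lower recovery from low-GFP cells. It was the second lowest of the 155 tested values. Below it stood ChIPCRM2078 at -7.81 (edgeR adjusted p = 0.0293), a call that was lost without day 1, 2, 3 or 5 (adjusted p up to 0.120) and with read 2 counts (0.0635). Next above it stood CAD2_Ket-1 at -5.30, which did not pass (edgeR adjusted p = 0.147), and then Ecoli_control24 at -2.47 (edgeR adjusted p = 0.0339). With single days dropped, Ecoli_control24 stayed called only in the fit lacking day 3. In the other such fits its edgeR adjusted p rose as high as 0.107. E. coli scaling also ended its call (edgeR adjusted p = 0.0666), and so did a fit with no experiment term (0.145). The 12 tested E. coli control elements, made of bacterial sequence, ran from -2.47 to 0.84 with a median of -0.68. Of these 12, edgeR called 4 lower and 0 higher, so that 4 of the 8 lower calls of the pool were controls. The same count was 6 lower and 0 higher with library totals, and 0 lower and 1 higher with E. coli scaling, which uses these elements to set the scale. All 12 lay above the value of Ubx_BXD-C, but whether the fragment fell further than the controls was not tested.

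The call of Ubx_BXD-C did not rest on 1 library or 1 day. Leaving out each library in turn gave log2 fold changes from -6.75 to -5.23 (edgeR adjusted p from 0.00738 to 0.0268), and leaving out each day gave -6.39 to -5.77 (0.00841 to 0.0474). Each sort held days that stood apart in size. The 3 days with the highest CD2+ values (days 5, 2 and 6) were also the 3 days with the highest low-GFP values, while days 1 and 4 left only 4 and 6 counts in low-GFP cells. The daily log2 ratio of low-GFP over CD2+ cells was -9.64, -6.33 and -5.61 on days 1 to 3 and -10.02, -5.87 and -4.67 on days 4 to 6. It was below 0 on 6 of 6 days, with a mean of -7.02 ± 2.24 (SD, n = 6 days). An exact two-sided sign-flip test over days gave p = 0.03125, the smallest that 6 days can give, and 0.125 after adjustment over the 4 fragments tested this way. No fragment could pass after this adjustment unless at least 3 of the 4 had 1 sign on all days, so the adjusted value decides nothing here.

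Within experiment 1 the log2 fold change of Ubx_BXD-C was -6.48 (SE 1.95, edgeR adjusted p = 0.112) and within experiment 2 it was -5.47 (SE 1.86, edgeR adjusted p = 0.105). Neither passed alone by edgeR, although DESeq2 called both (adjusted p = 4.44e-05 and 0.00189). The background was 4.52% of elements called by edgeR and 7.1% by DESeq2 in experiment 1, and 3.23% by edgeR and 14.2% by DESeq2 in experiment 2. The difference between the experiments was 1.01 (SE 2.18, edgeR adjusted p = 1.000). The authors' deposited table for experiment 1 gave 113 normalized counts in low-GFP against 10683 in CD2+ cells, a ratio of 0.0106 with an adjusted p of 1.32e-06. The authors' deposited table for experiment 2 gave 705 against 25697, a ratio of 0.0275 with an adjusted p of 0.0115. In both of these tables the ratio ranked 2 from the lowest, among 153 and 149 elements. The share with an adjusted p under 0.05 in the authors' deposited tables was 12.4% and 16.8%.

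**Figure D1:**
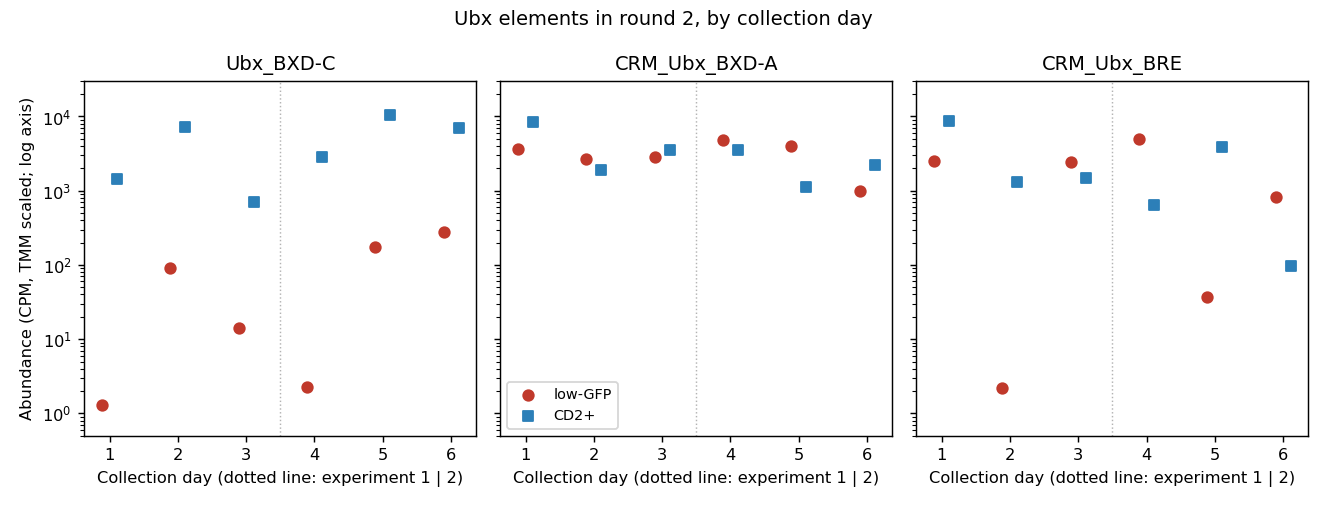
Abundance of the 3 Ubx fragments in round 2, in CPM on a log axis, against collection day, with 1 point per library (circles low-GFP, squares CD2+). For Ubx_BXD-C every low-GFP point (1.31 to 278 CPM) lies below every CD2+ point (710 to 10344 CPM), while the points of CRM_Ubx_BXD-A and CRM_Ubx_BRE overlap.

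CRM_Ubx_BXD-A, the other bithoraxoid fragment, had 11252, 7425, 12854, 12620, 13808 and 3110 counts in low-GFP libraries, against 36639, 11976, 16277, 20150, 5364 and 13943 in CD2+ libraries. In CPM the low-GFP libraries ranged from 982 to 4757 with a median of 3283, and the CD2+ libraries from 1137 to 8537 with a median of 2842. The groups overlapped over most of their range. The means were 3171 ± 1309 CPM in low-GFP and 3469 ± 2653 CPM in CD2+ cells (SD, n = 6 each). Low-GFP over CD2+ gave a log2 fold change equal to -0.04 (SE 0.57, edgeR adjusted p = 0.973). The sign of so small a value turned with the scaling, to 0.67 with E. coli scaling (edgeR adjusted p = 0.545). Its daily log2 ratio lay between -1.21 and 1.82, above 0 on 3 days and below 0 on 3 (mean 0.02 ± 1.15, SD, n = 6 days, exact sign-flip adjusted p = 1.0).

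This fragment was the steadiest of the 3 in low-GFP cells, and was close to Ubx_BXD-C in CD2+ cells. The coefficient of variation of Ubx_BXD-C was 121% over low-GFP and 77.8% over CD2+ libraries. That of CRM_Ubx_BXD-A over low-GFP libraries was 41.3%, with 127 of the 155 tested elements more variable and a median of 72.0% over all of them. Over CD2+ libraries it was 76.5%, with 57 elements more variable and a median of 63.1%. Within experiment 1 its log2 fold change was -0.59 and within experiment 2 it was 0.50 (edgeR adjusted p = 0.782 and 0.860), and the difference between the experiments was 1.09 (SE 1.13, edgeR adjusted p = 1.000). The authors' deposited tables gave ratios of 0.718 in experiment 1 and 1.46 in experiment 2 (adjusted p = 0.839 and 0.857).

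CRM_Ubx_BRE had 7590, 6, 10719, 13311, 126 and 2601 counts in low-GFP libraries, against 37823, 8336, 6858, 3662, 18317 and 620 in CD2+ libraries. In CPM the low-GFP libraries ranged from 2.19 to 5018 with a median of 1610, and the CD2+ libraries from 97.6 to 8812 with a median of 1399. Days 2 and 5 were low in low-GFP cells only, day 6 was lowest in CD2+ cells, and the groups overlapped. The means were 1794 ± 1923 CPM in low-GFP and 2706 ± 3260 CPM in CD2+ cells (SD, n = 6 each). Fitted, low-GFP over CD2+ stood at -0.45 on the log2 scale (SE 1.36, edgeR adjusted p = 0.849). The value was 0.17 with E. coli scaling, -1.63 without day 4 and 0.28 without day 5 (edgeR adjusted p = 0.944, 0.461 and 0.931). The daily log2 ratio ran from -8.97 on day 2 to 3.07 on day 6, above 0 on 3 of 6 days (mean -1.80 ± 5.06, SD, exact sign-flip adjusted p = 0.938).

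The spread of CRM_Ubx_BRE between days was large for the pool. In CD2+ cells its coefficient of variation was 120% and only 17 of 155 tested elements were more variable. In low-GFP cells it was 107%, with 35 elements more variable. Its log2 fold change was -1.25 in experiment 1 and 0.34 in experiment 2 (edgeR adjusted p = 0.842 and 0.974), with a difference of 1.59 (SE 2.72, edgeR adjusted p = 1.000). The authors' deposited tables also differed in direction, with ratios of 0.416 and 1.51 (adjusted p = 0.593 and 0.830).

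**Figure D2:**
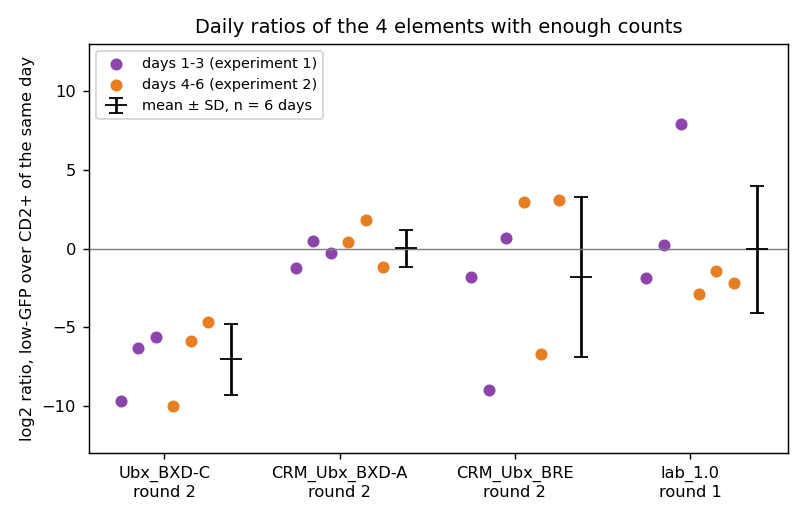
Daily log2 ratio of low-GFP over CD2+ abundance for the 3 Ubx fragments (round 2) and lab_1.0 (round 1), 1 point per day, with the mean ± SD over 6 days beside them. All 6 points of Ubx_BXD-C lie between -10.02 and -4.67, whereas those of CRM_Ubx_BXD-A lie between -1.21 and 1.82 and those of the other 2 fragments fall on both sides of 0.

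The 3 Ubx fragments were then set against each other within the same libraries, by the difference of their daily log2 ratios of low-GFP over CD2+ cells. The ratio of CRM_Ubx_BXD-A exceeded that of Ubx_BXD-C on 6 of 6 days, by 8.43, 6.84, 5.33, 10.44, 7.69 and 3.52. The mean difference was 7.04 ± 2.42 (SD, n = 6 days). An exact two-sided sign-flip test gave p = 0.03125, the smallest that 6 days allow, and 0.0938 adjusted over the 3 pairs, so that this contrast between bithoraxoid fragments did not pass after adjustment. CRM_Ubx_BRE exceeded Ubx_BXD-C on 4 of 6 days (mean 5.23 ± 5.88, exact adjusted p = 0.188). CRM_Ubx_BRE and CRM_Ubx_BXD-A differed by -1.81 ± 5.80, with BRE above on 3 of 6 days (exact adjusted p = 0.469). With 6 days, no adjusted p in this family could pass unless at least 2 of the 3 pairs had 1 sign on all days.

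Direct ratios of counts restated this contrast. Scaling between libraries also cancels in the pair differences, apart from the prior count, so these ratios are no separate support. In low-GFP libraries CRM_Ubx_BXD-A had 3.54 to 2813 times the counts of Ubx_BXD-C (median 117) and was above it on 6 of 6 days. In CD2+ libraries the ratio ran from 0.110 to 6.02 (median 0.782) and was above 1 on 3 of 6 days. The ratio of CRM_Ubx_BRE to CRM_Ubx_BXD-A had a median of 0.754 in low-GFP and 0.559 in CD2+ libraries, and ranged from 0.000808 to 1.05 in low-GFP and from 0.0445 to 3.41 in CD2+ libraries.

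In CD2+ cells, before any selection on GFP, the 3 Ubx fragments stood at similar places in the pool by their means over days. Single days differed widely, as CRM_Ubx_BRE had 0.0137 to 6.21 times the counts of Ubx_BXD-C in CD2+ libraries. By mean CPM among 188 elements, Ubx_BXD-C ranked 59, CRM_Ubx_BXD-A ranked 68 and CRM_Ubx_BRE ranked 84. In low-GFP cells they ranked 159, 75 and 101. Their mean levels in CD2+ cells, 4949, 3469 and 2706 CPM, differed by less than the SD of any of them across days. The likeness of the fragments over the 12 libraries was weak. Pearson's r of log2 CPM was 0.13 between CRM_Ubx_BRE and CRM_Ubx_BXD-A, -0.06 between CRM_Ubx_BRE and Ubx_BXD-C, and -0.34 between CRM_Ubx_BXD-A and Ubx_BXD-C.

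The elements most like each fragment over these 12 libraries were named by the same coefficient. Since the libraries cover both sorts and share their depth and their days, these values are descriptions. For Ubx_BXD-C they were ChIPCRM2078 (r = 0.85), E_0_12h_dCtBP7667.region_3346 (0.84) and Ecoli_control4 (0.79). For CRM_Ubx_BRE they were lz_LMEE (0.76), dpp_construct10 (0.70) and bab1_dimorphic_element (0.65). For CRM_Ubx_BXD-A they were ins_SF1_assoc_peak_center (0.65), CRM_2048 (0.64) and SoxN_5830 (0.56).

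**Figure D3:**
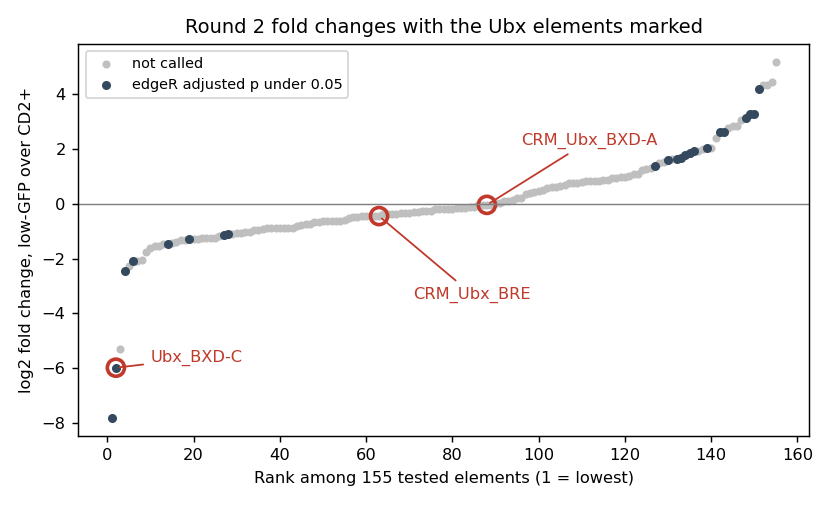
Log2 fold change of low-GFP over CD2+ cells for the 155 elements tested in round 2, in rank order, with elements past an edgeR adjusted p of 0.05 in dark. Ubx_BXD-C (-5.98) is the second lowest, while CRM_Ubx_BRE (-0.45) and CRM_Ubx_BXD-A (-0.04) lie in the flat middle of the distribution.

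In round 1 the Ubx locus gave no values. Ubx_BXD-C was listed with the same tag, and its count was 0 in all 18 libraries, which allows, at 3 counts of a library's read 1 total, up to 0.506 to 0.882 CPM without TMM scaling. It was among 160 of the 576 elements at 0 in every library of that round. The fragment was counted in 12 of 12 round 2 libraries. No ratio could be formed in round 1, and no Hox fragment met the count minimum in both rounds, so the planned test between rounds could not be made.

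The lab fragments of round 1 were compared across all 3 sorts. lab_1.0 was recovered in quantity from most libraries of every sort and did not differ between them by more than the days differed. lab_HZ550 was rare, with more than 10 counts in 3 low-GFP libraries, 0 CD2+ libraries and 1 CD2- library. One of the 2 fragments, lab_1.0, passed the filter on low counts. It was not called, against a background of 20.7% of 358 elements called in low-GFP against CD2+ cells, with 44 (12.3%) higher and 30 (8.38%) lower (39 and 48 with library totals, 41 and 18 with E. coli scaling). Those scalings moved the median log2 fold change of all elements by -0.59 and 0.19. The 8 tested E. coli control elements of round 1 ran from -2.94 to 1.83 with a median of -2.07. Of these 8, edgeR called 0 higher and 0 lower.

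lab_1.0 had 3181, 1502, 1784, 162, 1663 and 637 counts in low-GFP libraries of days 1 to 6. The CD2+ libraries had 13147, 1709, 5, 4163, 6511 and 2424 counts, and the CD2- libraries 14, 3806, 7438, 16698, 4272 and 2. The CD2+ library of day 3 and the CD2- libraries of days 1 and 6 were nearly empty of the fragment, while every low-GFP library held it. In CPM the low-GFP libraries ranged from 92.8 to 877 with a median of 416, the CD2+ libraries from 1.11 to 3160 with a median of 663, and the CD2- libraries from 0.504 to 2374 with a median of 802. All 3 ranges overlapped.

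The mean level of lab_1.0 was lowest in low-GFP cells at 415 ± 288 CPM, highest in CD2+ cells at 1057 ± 1137 CPM, and between them in CD2- cells at 829 ± 870 CPM (SD, n = 6 each). Neighbours in this order differed by less than the larger of their SDs. Against CD2+ cells it stood at -1.38 on the log2 scale (SE 1.43, edgeR adjusted p = 0.540), and without the CD2+ library of day 1 it was -0.37 (adjusted p = 0.885). Against both controls together it was -1.22 (SE 1.31, edgeR adjusted p = 0.543), with a background of 26% called, 57 (15.9%) higher and 36 (10.1%) lower (47 and 56 with library totals, 58 and 27 with E. coli scaling). CD2+ cells differed from CD2- cells by 0.31 (SE 1.42, edgeR adjusted p = 0.999), or by -0.11 with E. coli scaling. That comparison held 0 calls among 358 elements by edgeR (6 at an unadjusted p under 0.05) and 2 by DESeq2.

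The daily log2 ratios of lab_1.0 for low-GFP over CD2+ cells were -1.85, 0.21 and 7.94 on days 1 to 3 and -2.88, -1.41 and -2.21 on days 4 to 6. The ratio of day 3 came from the CD2+ library with 5 counts. The mean was -0.03 ± 4.04 (SD, n = 6 days), and 4 of 6 days were below 0 (exact sign-flip adjusted p = 1.0). The mean ratio was 2.10 in experiment 1 and -2.16 in experiment 2. Fitted within the experiments, the log2 fold changes were -1.05 and -1.84 (edgeR adjusted p = 0.829 and 0.678, against 4.75% and 8.1% of elements called), and without day 1 the experiment 1 value was 1.10. The difference between the experiments, fitted, was -0.78 (SE 2.95, edgeR adjusted p = 1.000). The authors' deposited tables, which set low-GFP against both controls, gave ratios of 0.605 in experiment 1 and 0.302 in experiment 2 (adjusted p = 0.796 and 0.702).

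The spread of lab_1.0 over days was near that of the pool. Its coefficient of variation was 69.4% in low-GFP cells, with 245 of 358 tested elements more variable, and 108% in CD2+ and 105% in CD2- cells, with 144 and 139 more variable. Over the 18 libraries of round 1 the elements most like it by Pearson's r of log2 CPM were E0_12_GROAviva_ChIP_chip.region_587 (0.88), ey_UE0.8 (0.76) and oc_SBg (0.74).

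**Figure D4:**
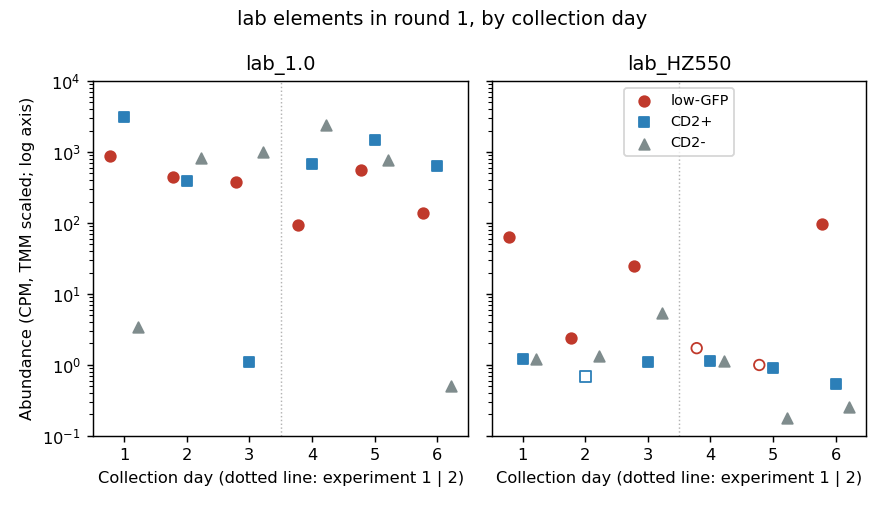
Abundance of the 2 lab fragments in round 1, in CPM on a log axis, against collection day, with 1 point per library (circles low-GFP, squares CD2+, triangles CD2-) and open symbols at the level of 3 counts where the count was 0. lab_1.0 is at 1.11 CPM in the CD2+ library of day 3 and 0.504 CPM in the CD2- library of day 6, and lab_HZ550 exceeds 20 CPM in the low-GFP libraries of days 1, 3 and 6.

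lab_HZ550 had 231, 8, 116, 0, 0 and 442 counts in low-GFP libraries. The CD2+ libraries had 5, 0, 5, 7, 4 and 2 counts and the CD2- libraries 5, 6, 40, 8, 1 and 1. The summed counts were 797 in low-GFP, 23 in CD2+ and 61 in CD2- libraries. Days 1, 3 and 6 of the low-GFP sort were above every control library, while days 4 and 5 were at 0, which allows up to 1.72 and 0.996 CPM, so the groups overlapped. Low-GFP cells averaged 31.2 ± 40.2 CPM, CD2+ cells 0.816 ± 0.470 CPM and CD2- cells 1.57 ± 1.91 CPM (SD, n = 6 each).

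The fragment was left out of the fit by the filter on low counts. Fitted without the filter, over 416 elements, it was called higher in low-GFP than in CD2+ cells with a log2 fold change of 5.18 (edgeR adjusted p = 0.0404), against a background of 12.5% called higher. Against both controls the value was 4.81 (edgeR adjusted p = 0.00879), with 16.6% called higher. With read 1 plus read 2 counts it passed the filter and was called, at 5.12 and 4.71 (edgeR adjusted p = 0.0281 and 0.00632). There 46 and 58 of 364 elements were called higher. Read 2 gave nearly the counts of read 1 (441 and 442 in the low-GFP library of day 6). Their sum about doubled each count against an unchanged minimum of 10, so this fit is no separate support. The DESeq2 test without the filter called lab_HZ550 too, at 5.26 and 4.91 (adjusted p = 0.00428 and 0.0014). It called 72 and 78 of 416 elements higher. With collection day as a replicate block both calls of the unfiltered edgeR fit were lost, at 3.88 and 3.54 (edgeR adjusted p = 0.268 and 0.201). The call against CD2+ cells was also lost without any single day, the log2 fold change running from 3.14 to 5.64 (edgeR adjusted p from 0.0613 to 0.395). The call against both controls was lost without day 1 (4.52, edgeR adjusted p = 0.0531) or day 6 (2.96, adjusted p = 0.309). The daily log2 ratio over CD2+ cells was 5.28, 2.68, 4.02, -1.85, -1.60 and 6.63, above 0 on 4 of 6 days.

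The authors' deposited table for experiment 1 put lab_HZ550 at 146 normalized counts in low-GFP against 8.90 in both controls, a ratio of 16.4 with an adjusted p of 0.0468. The authors' deposited table for experiment 2 gave 200.1 against 3.76, a ratio of 53.2 with an adjusted p of 0.0199. In experiment 2 the low-GFP value came from day 6 alone, since days 4 and 5 had 0 counts in both reads. The share with an adjusted p under 0.05 was 23.2% in the experiment 1 table and 18.8% in the experiment 2 table.

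Elements of other genes of the Hox network were counted from lists chosen with earlier results of these data known. Of the 8 Hox genes, lab and Ubx alone had elements in round 1 and Ubx alone in round 2. Among the other homeobox genes of the Antennapedia complex, 4 elements were tested in round 1, with 1 higher and 1 lower. Both called ones belong to fushi tarazu, a pair-rule gene that lies among the Hox genes: ftz_5'delta276 had a log2 fold change of 4.64 (edgeR adjusted p = 0.000132) and another upstream element of the gene one of -2.24 (edgeR adjusted p = 0.00708, lost without day 3 at 0.0701). Of the Hox cofactors, hth_3, of homothorax, was the one tested, in round 2, at -1.34 (edgeR adjusted p = 0.182).

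For known or proposed regulators of Ubx, such as hunchback and fushi tarazu, 16 elements were tested in round 1 and 3 were higher, 1 lower and 12 not called, where 12.3% of all elements were higher and 8.38% lower. Their median log2 fold change was -0.14, beside -0.64 over all elements. The lists overlap, and both called ftz elements given above were counted here again, the lower of them being the 1 lower element. The higher ones were ftz_5'delta276, h_HHRE (7.31, edgeR adjusted p = 0.000181) and hb_matDm0.5-lacZ (8.99, edgeR adjusted p = 0.0322, lost without any of days 1 to 4 at up to 0.145, in the fit with a block for collection day at 0.108, and with no experiment term, which gave 3.05, at 0.456). In round 2, 1 of 6 was higher (9.03% of all elements were), hb_lateDm1.0-lacZ at 2.03 (edgeR adjusted p = 0.0249, lost without day 1, 2, 3 or 6 at up to 0.0847), and the median was -0.01, beside -0.20 over all elements.

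For targets of Ubx or lab, 12 elements were tested in round 1, with 0 higher, 4 lower and 8 not called, where 12.3% of all elements were higher and 8.38% lower. Their median was -1.09, beside -0.64 over all elements. The lower ones were those of limb and antenna genes and of a wing gene: ss_P732 (-3.08, edgeR adjusted p = 0.00495), ss_E2.0_531 (-2.57, edgeR adjusted p = 0.0482), vg_quadrant_enhancer (-2.34, edgeR adjusted p = 0.00734) and Dll_215 (-1.53, edgeR adjusted p = 0.00734). Leaving out day 2, 3, 4 or 5 ended the call of ss_E2.0_531 (up to 0.172), as did collection day as a block (0.0962), read 2 counts (0.0777) and no experiment term (-1.84, 0.311), and leaving out day 3 or 5 ended that of Dll_215 (up to 0.0701). With E. coli scaling those of ss_E2.0_531, vg_quadrant_enhancer and Dll_215 were lost at adjusted p = 0.0599, 0.0511 and 0.113, with the direction kept. In round 2, 2 of 6 were higher and 4 were not called, where 9.03% of all elements were higher. Their median was 1.56, beside -0.20 over all elements. The higher ones were Dll_304, of the limb gene Distal-less, at 1.76 (edgeR adjusted p = 0.0293, lost without day 2, 3 or 6 at up to 0.123) and dpp_85.8MX, of the signalling gene decapentaplegic, at 1.60 (edgeR adjusted p = 0.0398, lost without any day but day 3 at up to 0.127). The 4 not called were dpp_VRR (1.98), rho_NEE_long (1.51), dpp_construct10 (-1.53) and dpp_BS3.1 (-1.63), so elements of dpp stood in both directions. With library totals as the scale, hb_lateDm1.0-lacZ, Dll_304 and dpp_85.8MX kept their direction and lost their calls (edgeR adjusted p = 0.0717, 0.0717 and 0.1001). That of dpp_85.8MX was also lost with DESeq2 size factors (0.0561) and read 2 counts (0.0679). In round 1 the same dpp element stood at 2.44 (SE 1.43) and was not called (edgeR adjusted p = 0.260).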

How the data were processed

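The authors deposited, per library, raw counts of read 1 and of read 2 for each tagged element; empty cells were read as 0. Inserts were recovered by nested PCR from genomic DNA, per the labels' protocols. The authors also deposited 4 comparison tables, which per the file headers hold base means (a normalized signal), a ratio, its log2 value, and a p-value with its adjusted form. DESeq was used per the submitters' processing notes. Its version is not given in the sources used here, and neither is the aligner or build. PCR copies carry no molecular identifiers and are not separate molecules, so the limit set for a count of 0 (3 counts) covers counting error only.

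Read 1 counts were fitted over all elements of a round with edgeR 4.0.16 in R 4.3.3 (filterByExpr, minimum count 10, TMM, quasi-likelihood test, terms for population and experiment, Benjamini-Hochberg adjustment over all elements tested). The SE is the absolute log2 fold change over the square root of F, so it restates the test. Within-experiment values and their difference came from a fit with an interaction. Daily log2 CPM ratios used a prior count of 2 and exact sign-flip tests, for fragments with 10 or more counts in 6 or more libraries. DESeq2 1.42.0 was an alternative. The edgeR tests were checked on simulated data.

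Collection dates given in the labels pair the sorts: same-day deviations from population means correlated above 0.1 in 17 of 18 pairs in round 1 and 6 of 6 in round 2 (medians 0.22 and 0.48). Replicates are collection days. The 5 fragments are always named; other elements are named as the 3 most like a fragment over the libraries of a round, as its neighbours by fold change (for Ubx_BXD-C), or as called members of the lists. The fragments and lists were chosen with earlier results of these data known.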

Additional observations from a re-analysis of the deposited data

Results flagged for a closer look

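Among 13 sets of 6 values tested with Dixon's criterion, 3 held a value far from the other 5; chance gives about 1 set in 20. CRM_Ubx_BXD-A in the low-GFP library of day 6 of round 2 stood at a log2 CPM of 9.94 (982 CPM, 3110 counts), below the other 5 libraries. lab_1.0 in the CD2+ library of day 3 of round 1 stood at 0.64 (1.11 CPM, 5 counts), far below the other CD2+ libraries. The log2 ratio of low-GFP over CD2+ cells for lab_1.0 on day 3, which uses that same library, was 7.94 and lay far above the other days.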

How the results depend on the processing

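The call of Ubx_BXD-C as lower in round 2 held under every alternative run, with log2 fold changes from -6.88 (collection day as a replicate block, edgeR adjusted p = 0.00287) to -5.35 (E. coli scaling, 0.0126) over the settings that used all libraries, and an adjusted p of 8.01e-09 by the DESeq2 test. Its daily mean and the pair differences kept their sides with a prior count of 0.5. The block ended the calls of lab_HZ550 (without the filter), hb_matDm0.5-lacZ and ss_E2.0_531 given above. It ended no other call of the 5 fragments or the lists. For lab_HZ550, the unfiltered fits with the block, without single days and by DESeq2 were chosen after the data were seen. Leaving out single libraries was also chosen after the data were seen. Values that were not called changed sign as follows. CRM_Ubx_BXD-A against CD2+ cells was 0.67 with E. coli scaling, 0.0882 with read 2 counts, 0.0015 with the block and -0.36 to 0.31 without single days; its daily mean was -0.49 with library totals; its experiment 1 value was 0.0331 with E. coli scaling and -1.03 to 0.0513 without single days, and its experiment 2 value -0.0329 to 0.87. CRM_Ubx_BRE was 0.17 with E. coli scaling and -1.63 to 0.28 without single days; its experiment 2 value was -0.0295 with library totals and -2.21 to 2.94 without single days, and its difference between experiments -0.97 to 4.19. For lab_1.0, CD2+ against CD2- cells gave -0.11 with E. coli scaling and -0.77 to 1.17 without single days, the experiment 1 value ran from -1.30 to 1.10, and the daily mean was 0.0245 with a prior count of 0.5. Counts of called elements moved by over 1.5 times with the DESeq2 test in low-GFP against CD2+ cells of round 1 (114, where edgeR called 74), in CD2+ against CD2- cells (2, where edgeR called 0) and in the interaction of round 1 (7, where edgeR called 1). Within round 1 they were 17 in experiment 1 (79 by DESeq2, 8 with E. coli scaling) and 29 in experiment 2 (71 by DESeq2, 17 with E. coli scaling). Within round 2 they were 7 in experiment 1 (11 by DESeq2) and 5 in experiment 2 (22 by DESeq2, 12 with E. coli scaling, 13 with library totals). Without single days the counts ran from 9 to 28 in round 2 (22 with all days; 12, 9, 14, 11 and 14 without days 1, 2, 3, 5 and 6) and from 0 to 1 in the interaction of round 1 (0 without any of days 2 to 6). The causes of these changes were not tested. The planned test between rounds could not be made. Low counts limit lab_HZ550, with 23 counts in all CD2+ libraries. Why Ubx_BXD-C was at 0 in round 1 was not tested.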

Other observations

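The median balance of read 2 to read 1 counts differed between the Ubx fragments, while their ranges over libraries overlapped. Over libraries with 10 or more read 1 counts, the median ratio was 1.5 for CRM_Ubx_BXD-A (5 of 155 tested elements were higher), 1.30 for CRM_Ubx_BRE (28 higher) and 0.922 for Ubx_BXD-C (127 higher), beside 1.08 for the median element. For lab_1.0 it was 1.28, with 50 of 358 elements higher. The ratio of library totals ran from 1.01 to 1.14 in round 2. Over single libraries it ran from 1.03 to 1.66 for CRM_Ubx_BXD-A, 1.04 to 1.45 for CRM_Ubx_BRE and 0.429 to 1.23 for Ubx_BXD-C. Whether the fragments differ in this balance was not tested.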
